A study of Mus musculus with 16 samples.

Results

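Chemokines, interleukins and their receptors are the secreted signals and cell-surface proteins through which heart cells and immune cells call to each other, and 79 of their genes were followed in mouse hearts. They were chosen by symbol: any gene whose name begins with Ccl, Ccr, Cxcl, Cxcr or Il and a digit, or with Cx3c, and whose mean over 16 libraries was at least 5 normalized reads. Of 24421 genes in the deposited table, 139 had such a symbol and 79 of these reached that mean. The nearest members above it were Il1r2 at 6.27 and Ccl3 at 6.39, and the nearest genes below it were Cxcl2 at 4.96 and Ccl17 at 4.52. Among the 60 genes below it, 15 had no read in any library, and Il6 had a mean of 4.09. By role the 79 members are 14 CC ligands, 10 CXC or CX3C ligands, 12 chemokine receptors, 12 interleukins or interleukin-binding proteins and 31 interleukin receptor chains.

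The 4 groups, of 4 animals each per the series design, were wild-type (WT) hearts after sham surgery, WT hearts after myocardial infarction (MI), hearts overexpressing the receptor tyrosine kinase ERBB2 (OE) after sham surgery, and OE hearts after MI. For the infarct the left anterior descending coronary artery was tied permanently. RNA was taken 2 weeks later from adult mice of about 3 months. The labels name the tissue as heart and give no sex, no promoter or driver cell type for the overexpression, and no species or sequence of the ERBB2 that was expressed. Each sample description also gives an RA number, whose meaning is not stated. Values are the authors' normalized reads, that is, read counts divided by 1 size factor per library, and n is 4 hearts for every group. A member is said to have risen or fallen when its adjusted p was below 0.05 in limma on log2(value + 1), adjusted over all 14811 genes tested, and ± after a log2 fold change is its standard error.

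Chemokines are small proteins that draw leukocytes along a gradient through G-protein-coupled receptors. CC ligands such as Ccl2 mainly recruit monocytes, T cells and eosinophils, CXC ligands recruit neutrophils or lymphocytes depending on the ligand, and the CX3C ligand fractalkine is a membrane-bound protein that can be shed. Interleukins signal through paired receptor chains that are often shared, so that Il6st serves the whole interleukin-6 family and Il1rap several receptors of the interleukin-1 family. Decoys and antagonists are part of the same system, such as Il1rn, which blocks the interleukin-1 receptor, and Il18bp, which captures interleukin-18. After an infarct these genes are known for ordering the entry of neutrophils, then monocytes, then the cells that build scar.

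Libraries were subsampled to a common number before alignment, so the totals given here are of reads counted in genes and are not sequencing depth. These totals ran from 11939093 to 17468914 per library. They separated by genotype, from 11939093 to 14886191 in the 8 WT libraries and from 14998464 to 17468914 in the 8 OE libraries. Erbb2 itself ran from 204 to 307 normalized reads in the 8 WT libraries and from 792 to 2530 in the 8 OE libraries, so every library matched its genotype label. Cardiomyocyte markers such as Myh6 were high in all 16 libraries. Transcripts of lung epithelium stood apart in 5 libraries: Sftpc, which encodes a surfactant protein, lay between 1097 and 5038 in WT infarcted replicates 2, 3 and 4 and OE infarcted replicates 2 and 3, and between 0 and 4.63 in the other 11. Transcripts of immature T cells stood apart in 3 libraries: Rag1, the recombinase of developing lymphocytes, lay between 162 and 422 in OE infarcted replicates 1, 3 and 4 and between 0 and 5.48 in the other 13. In the 8 sham libraries both genes were at 4.597 normalized reads or less.

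Per kilobase of exon, the scale on which levels of different genes can be set side by side, the most abundant members over all libraries were Il10rb at 532.2 normalized reads per kb, Cxcl12 at 517.9, Ccl6 at 444.9, Il6st at 374.7 and Il13ra1 at 248.4. Il10rb is the shared chain of receptors for interleukin-10 and related cytokines, and Cxcl12 is the stromal ligand that holds progenitor cells and lymphocytes in tissues. The least abundant was Il18rap, an accessory chain of the interleukin-18 receptor, at 1.504. Il10rb fell in OE against WT sham hearts, and Cxcl12, Ccl6, Il6st and Il13ra1 did not pass there.

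In hearts that had only been sham operated, ERBB2 overexpression went with higher Cx3cl1, Cxcl10, Cxcl16, Ccl2, Ccl8, Il1b and Il33 and with lower Ccl11, Ccl24 and Il15. Of 79 members, 31 rose and 7 fell in OE against WT sham hearts. Among all genes tested 47.8% passed in this comparison, 24.1% upward and 23.7% downward, so that the share of members that passed, 48.1%, lay near the background, whereas the share that rose was 39.2% and the share that fell 8.86%. The median log2 fold change was 0.315 over the members and 0.00737 over all genes tested. The values of the 2 groups did not overlap for 32 members, 40.5%, of which 28 were higher and 4 lower in OE hearts, against 47.4% of all genes (23.7% in each direction). By role, 7 of 12 chemokine receptors rose and none fell, 3 of 10 CXC or CX3C ligands rose and none fell, and 4 of 14 CC ligands rose and 2 fell. Of 12 interleukins or binding proteins 5 rose and 1 fell, and of 31 interleukin receptor chains 12 rose and 4 fell. The authors' deposited table calls 39 members in this comparison, and these include all 38 called here.

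**Figure D1:**
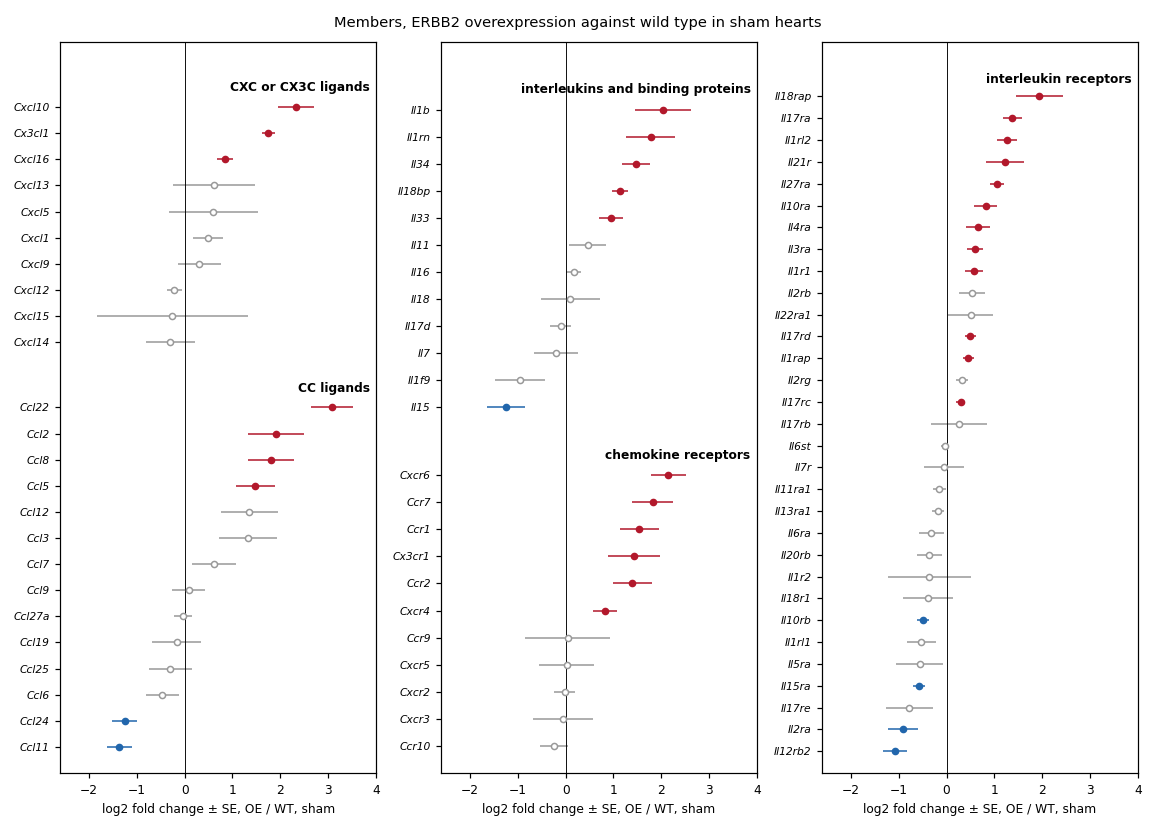
Log2 fold change of 78 of the 79 members in OE against WT sham hearts, with a line for its standard error, in 5 blocks by role; filled points passed at an adjusted p below 0.05, red upward and blue downward, and open points did not. The called chemokine receptors drawn lie above 0, and Ccl11, Ccl24, Il15, Il12rb2, Il2ra, Il15ra and Il10rb lie below it.

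Both genes of the fractalkine pair rose. Cx3cl1, which encodes fractalkine, read 219.5, 216, 265 and 186 in WT sham and 768, 686, 832 and 696 in OE sham hearts, so that the lowest OE heart was far above the highest WT heart (log2 fold change 1.75 ± 0.13, adjusted p = 1.25e-07). Its receptor Cx3cr1, carried by monocytes and resident macrophages, read 58.1, 31.9, 109 and 85.5 in WT sham and 167, 224, 134 and 195 in OE sham hearts (log2 fold change 1.44 ± 0.54, adjusted p = 0.0391). All OE sham values of Cx3cr1 lay above the WT ones, but its call was lost without any 1 of WT sham replicates 1 and 2, and OE sham replicates 1, 2 and 4 (adjusted p = 0.0665 to 0.128), and also when all genes in the table were tested (adjusted p = 0.0505) and with the replicate number as a block (adjusted p = 0.0637). The call of Cx3cl1 held under every alternative run.

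Another ligand that exists in a membrane-bound form, Cxcl16, rose with its receptor Cxcr6. Cxcl16 read 191, 176, 206 and 207 in WT sham and 332, 373, 344 and 352 in OE sham hearts (log2 fold change 0.84 ± 0.16, adjusted p = 0.000417). Cxcr6, a receptor of T cells and other lymphocytes, read 14.2, 14.04, 8.04 and 13.9 in WT sham and 63.5, 82.1, 51.4 and 41.5 in OE sham hearts, and the 2 groups did not overlap (log2 fold change 2.15 ± 0.37, adjusted p = 0.000190). Of the exon bases of Cxcl16, 552 of 3021 lie in exons of Zmynd15 on the opposite strand. The use of strand in counting is not stated in the sources used here, so reads of these 2 genes cannot be told apart over that stretch.

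Cxcl10, which is induced by interferon and draws activated T cells through Cxcr3, was nearly absent from WT sham hearts at 1.29, 1.28, 2.30 and 1.07 normalized reads and lay at 20.6, 10.1, 9.51 and 7.97 in OE sham hearts (log2 fold change 2.33 ± 0.37, adjusted p = 9.09e-05). Adding 1 before the logarithm makes the fold change of so low a gene smaller than that of its normalized reads. The log2 fold change of Cxcl10 in the authors' deposited table is 3.02. Cxcl9, another interferon-induced ligand of Cxcr3, did not pass the test, with 40.03, 54.9, 22.98 and 11.8 in WT sham and 47.4, 23.05, 38.1 and 35.1 in OE sham hearts (adjusted p = 0.600). Cxcr3 itself, at group means of 6.14 ± 4.00 and 5.74 ± 3.29 (SD), did not pass either (adjusted p = 0.950). The neutrophil-attracting ligands Cxcl1 and Cxcl5 and their receptor Cxcr2 did not pass, with log2 fold changes of 0.49 ± 0.31, 0.60 ± 0.93 and −0.020 ± 0.22. The standard error of Cxcl5 is the widest of the 3, so that for it a sizeable change in either direction was not detectable in this fit. The fit shares 1 estimate of spread over the 4 groups. Cxcl5 ran from 1.15 to 6.46 in WT sham and 2.77 to 12.8 in OE sham hearts. In WT infarcted hearts it ran from 3.29 to 34.8 and in OE infarcted hearts from 0 to 30.9.

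Cxcl12 read 5642, 4935, 5032 and 4436 in WT sham and 4310, 3128, 4562 and 5539 in OE sham hearts, overlapping ranges with an adjusted p of 0.265. Its signalling receptor Cxcr4 read 107, 108, 159 and 183 in WT sham and 274, 337, 156 and 231 in OE sham hearts and rose by 0.82 ± 0.26 on the log2 scale (adjusted p = 0.0156), although the ranges overlapped. This call was lost without WT sham replicates 1 or 2 or OE sham replicate 2 (adjusted p = 0.0502, 0.0510 and 0.0588 in that order). The scavenging receptor of the same ligand, Ackr3, which is outside the symbol rule, fell by 0.82 on the log2 scale (adjusted p = 0.000107). Cxcl14, a ligand of epithelial and stromal cells, ran from 284 to 591 in WT and from 181 to 647 in OE sham hearts and did not pass (adjusted p = 0.657).

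Among CC ligands Ccl2, Ccl5, Ccl8 and Ccl22 rose and Ccl11 and Ccl24 fell. Of 9 monocyte and macrophage CC ligands tested, 3 rose, 1 fell and 5 did not pass. Ccl2, the main ligand of Ccr2, read 25.8, 11.5, 25.3 and 33.1 in WT sham and 63.5, 134, 147 and 45.4 in OE sham hearts (log2 fold change 1.91 ± 0.59, adjusted p = 0.0147), and its call was lost without WT sham replicate 2 (adjusted p = 0.0519). Ccl8 read 18.1, 30.6, 10.3 and 11.8 in WT sham and 50.9, 82.1, 57.1 and 51.8 in OE sham hearts (log2 fold change 1.81 ± 0.48, adjusted p = 0.00577). Neither gene showed overlap between the groups. Ccl5, which attracts T cells and monocytes, rose from 4.53 to 13.5 normalized reads in group means (log2 fold change 1.48 ± 0.41, adjusted p = 0.00712).

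Ccl22, a ligand that activated dendritic cells and macrophages release for Ccr4, had 1 read over all 4 WT sham libraries and 47 reads over the 4 OE sham libraries. Relative to the library totals that is a ratio of 39.1, with a 95% counting interval from 6.69 to 1580 that covers counting error only. In normalized reads the OE sham hearts were at 14.3, 13.8, 3.81 and 9.57, and 3 of 4 WT sham hearts were at 0 (adjusted p = 3.23e-05).

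Ccl11 and Ccl24 encode eotaxins, which draw eosinophils through Ccr3. Ccl11 read 101, 159.6, 90.8 and 149.7 in WT sham and 24.1, 59.00, 60.9 and 54.2 in OE sham hearts and fell without overlap (log2 fold change −1.36 ± 0.27, adjusted p = 0.000586). Ccl24 read 72.3, 61.3, 78.1 and 74.8 in WT sham and 18.8, 20.3, 41.9 and 45.4 in OE sham hearts and fell as well (log2 fold change −1.26 ± 0.27, adjusted p = 0.00115). Both calls held under every alternative run. Ccr3 was not among the 79 members. The macrophage ligands Ccl6, Ccl7, Ccl9 and Ccl12 did not pass, with log2 fold changes of −0.47 ± 0.35, 0.60 ± 0.46, 0.081 ± 0.35 and 1.35 ± 0.60. Ccl6 is the most abundant CC ligand per kilobase, and it read 354, 414, 650.4 and 794 in WT sham and 216, 422, 444 and 501 in OE sham hearts. Those 8 values overlap, with the lowest in an OE heart. Ccl7, a monocyte attractant, ran from 14.9 to 25.5 in WT and from 15.9 to 48.9 in OE sham hearts. Ccl9 ran from 165 to 337 and from 173 to 336, and Ccl12, a Ccr2 ligand of mice, from 5.75 to 22.98 and from 12.8 to 62.8.

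**Figure D2:**
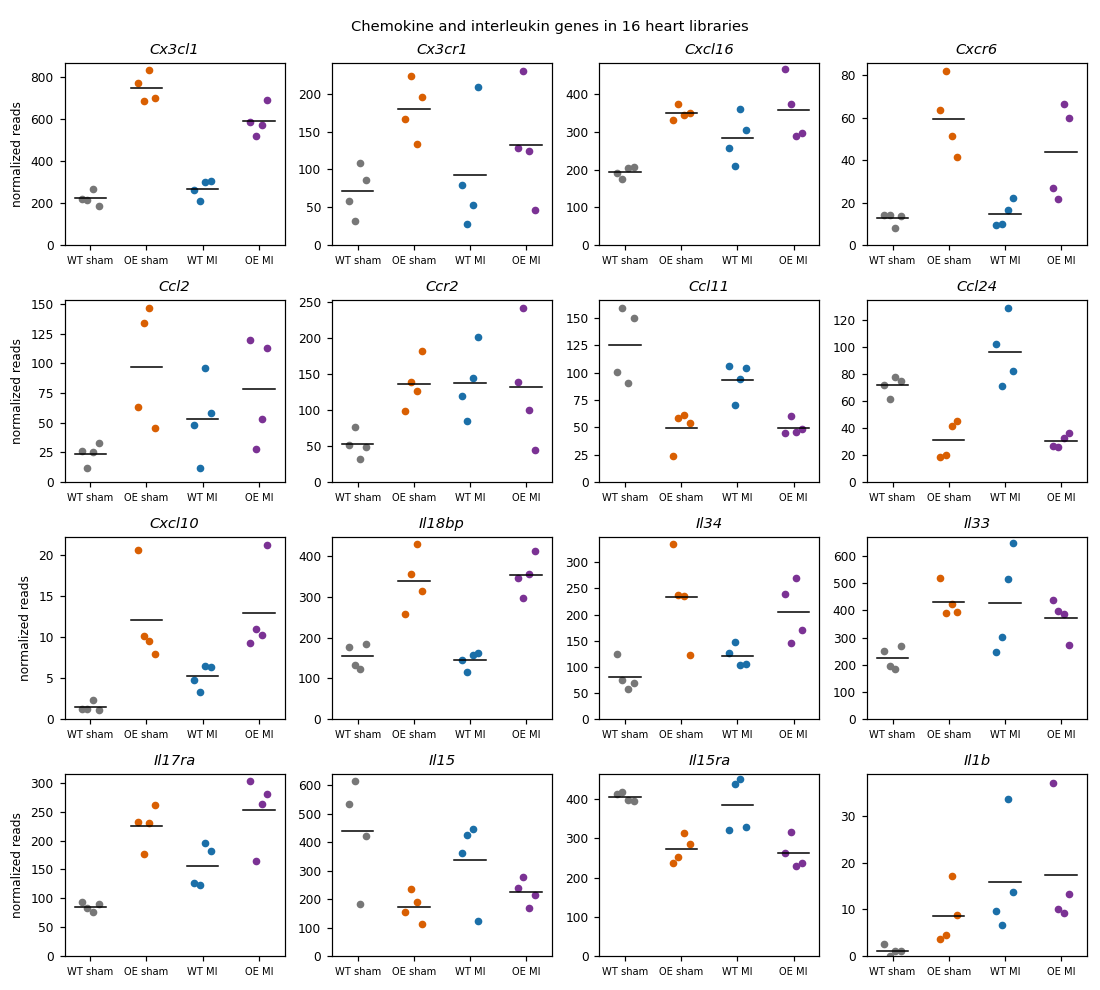
Normalized reads of 16 members in each heart, on linear axes that start at 0, with 1 point per heart coloured by group and a horizontal line at each group mean. Cx3cl1 and Il17ra in the OE sham hearts lie above all WT sham values, and Ccl11, Ccl24 and Il15ra in the OE sham hearts lie below them.

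Receptors of myeloid cells rose as well. Ccr2, which brings monocytes out of the blood, read 51.7, 76.6, 32.2 and 49.2 in WT sham and 98.3, 139, 127 and 182 in OE sham hearts (log2 fold change 1.39 ± 0.41, adjusted p = 0.0108). Ccr7, which guides dendritic cells and T cells to lymph nodes, was low in both groups but did not overlap, at 1.29, 2.55, 3.45 and 1.07 in WT sham and 7.15, 13.8, 3.81 and 19.1 in OE sham hearts (log2 fold change 1.82 ± 0.43, adjusted p = 0.00269). Ccr1, a receptor of several CC ligands on myeloid cells, rose from 26.3 to 80.5 in group means (log2 fold change 1.54 ± 0.40, adjusted p = 0.00531). In the libraries with RA numbers 1 to 12 alone, 2 WT sham and 3 OE sham hearts, the call of Ccr2 was lost (adjusted p = 0.191), and so was that of Ccl8 (adjusted p = 0.116). The lymphocyte receptors Ccr9, Ccr10, Cxcr3 and Cxcr5 did not pass, with log2 fold changes between −0.24 and 0.047.

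Markers of several cell types moved in the same comparison, in which 47.8% of all genes passed, 24.1% upward and 23.7% downward. Of 12 macrophage markers 6 rose and none fell, and their summed level ran from 7509 to 9584 normalized reads in WT sham and from 9855 to 12517 in OE sham hearts. Those that rose were Ms4a7, Adgre1, C1qb, Cd68, Fcgr1 and C1qa, with log2 fold changes from 0.46 to 2.10, while Csf1r, Lyz2, Cd14, Mrc1, C1qc and Cd163 did not pass. Of 7 dendritic cell markers tested 3 rose, of 7 B cell markers 1 rose, and of 7 T and NK cell markers and 7 neutrophil markers none passed. Summed T and NK cell markers ran from 26.7 to 56.8 in WT and from 53.3 to 103 in OE sham hearts, and summed neutrophil markers from 24.3 to 152 and from 49.2 to 74.1. Of 8 fibroblast markers 6 rose, and their sums, 23478 to 27518 against 89303 to 105530, did not overlap. Of 6 cardiomyocyte markers 1 rose and 3 fell, among them Myh6, with sums of 887150 to 1020500 in WT and 734720 to 903760 in OE sham hearts. Of 7 endothelial markers 2 fell and none rose, with sums of 16343 to 20310 against 13516 to 17209. Of 6 mesothelial markers 2 fell and none rose, with sums of 811 to 1593 against 357 to 1096. The part of any of these cell types in the members' differences was not tested, and in whole tissue a change in the number of cells and a change in RNA per cell cannot be told apart.

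Of 17 genes of the interleukin-1 family and its regulators tested, 8 rose and 9 did not pass, beside 24.1% of all genes that rose. Il1b, the inflammatory ligand, read 2.58, 0, 1.15 and 1.07 in WT sham and 3.57, 4.61, 17.1 and 8.77 in OE sham hearts (log2 fold change 2.04 ± 0.59, adjusted p = 0.00938). Il1rn, its receptor antagonist, read 20.7, 2.55, 4.597 and 3.21 in WT sham and 17.9, 26.7, 15.2 and 28.7 in OE sham hearts (log2 fold change 1.78 ± 0.52, adjusted p = 0.00993). WT sham replicate 1 had 20.7 normalized reads of Il1rn, inside the OE range, while the other 3 had 4.597 at most. In the libraries with RA numbers 1 to 12 alone neither passed (adjusted p = 0.0846 for Il1b and 0.204 for Il1rn).

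On the receptor side, Il1r1, the signalling receptor of interleukin-1, rose from 339 to 505 in group means (log2 fold change 0.57 ± 0.19, adjusted p = 0.0219), and its accessory chain Il1rap from 145 to 198 (log2 fold change 0.46 ± 0.11, adjusted p = 0.00243). The call of Il1r1 was lost without WT sham replicate 2 or OE sham replicate 2 (adjusted p = 0.0657 and 0.0695 in that order). Il1rl2, the receptor of interleukin-36, rose from 39.9 to 96.1 (log2 fold change 1.26 ± 0.21, adjusted p = 0.000163), while Il1f9, which encodes a ligand of that receptor, did not pass (log2 fold change −0.95 ± 0.53, adjusted p = 0.151). The decoy receptor Il1r2 did not pass either (adjusted p = 0.753).

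Il33, an alarmin kept in the nuclei of stromal cells, read 252, 197, 183 and 269 in WT sham and 520.1, 392, 424 and 392 in OE sham hearts, with no overlap (log2 fold change 0.95 ± 0.25, adjusted p = 0.00527). Its receptor Il1rl1, also called ST2, read 25.8, 16.6, 29.9 and 28.9 in WT sham and 10.7, 18.4, 16.2 and 24.7 in OE sham hearts and did not pass (log2 fold change −0.53 ± 0.30, adjusted p = 0.162). In the interleukin-18 branch, Il18 itself read 34.9, 1.28, 9.19 and 16.04 in WT sham and 13.4, 12.9, 8.56 and 8.77 in OE sham hearts and did not pass (adjusted p = 0.909). Its antagonist Il18bp read 176, 133, 122 and 184 in WT sham and 257, 356, 430.1 and 313 in OE sham hearts and rose (log2 fold change 1.14 ± 0.17, adjusted p = 5.60e-05). The accessory chain Il18rap rose from low values of 3.87, 0, 3.45 and 1.07 to 8.04, 12.9, 7.61 and 7.97 (log2 fold change 1.94 ± 0.49, adjusted p = 0.00407), and the partner chain Il18r1 did not pass (adjusted p = 0.570).

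Other interleukins split by family. Il34, a ligand of the macrophage growth factor receptor Csf1r, read 124, 74.04, 58.6 and 69.5 in WT sham and 334, 238, 236 and 123 in OE sham hearts (log2 fold change 1.47 ± 0.29, adjusted p = 0.000543). The ranges met at WT sham replicate 1, the highest WT value, and OE sham replicate 4, the lowest OE value, and the other 3 OE hearts stood well above. Il15, which sustains NK cells and memory T cells, read 535, 613, 182 and 420.2 in WT sham and 154, 236, 191 and 112 in OE sham hearts and fell (log2 fold change −1.25 ± 0.41, adjusted p = 0.0189). Il15ra, the chain that presents interleukin-15, fell with it and without overlap, at 412, 417, 399 and 396 in WT sham and 237, 252, 314 and 286 in OE sham hearts (log2 fold change −0.58 ± 0.13, adjusted p = 0.00155). The call of Il15 was lost without WT sham replicates 1 or 2 or OE sham replicate 4 (adjusted p = 0.0555, 0.0651 and 0.0584 in that order), whereas that of Il15ra held under every alternative run.

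Of the other receptor chains that fell, Il2ra, the high-affinity chain of the interleukin-2 receptor, read 59.4, 71.5, 33.3 and 67.4 in WT sham and 37.5, 40.6, 13.3 and 34.3 in OE sham hearts (log2 fold change −0.92 ± 0.31, adjusted p = 0.0232). Il12rb2, a signalling chain of the interleukin-12 receptor, read 24.5, 14.04, 26.4 and 28.9 in WT sham and 10.7, 14.8, 8.56 and 7.97 in OE sham hearts (log2 fold change −1.08 ± 0.25, adjusted p = 0.00231). Il10rb read 2606, 2807, 2228 and 2223 in WT sham and 1580, 1670, 1938 and 1789 in OE sham hearts, the only one of these 3 without overlap (log2 fold change −0.50 ± 0.12, adjusted p = 0.00305). The call of Il2ra was lost without any 1 of WT sham replicates 1, 2 and 4, and OE sham replicate 3 (adjusted p = 0.0504 to 0.0744), with library totals in place of the deposited size factors (adjusted p = 0.0565) and in the sham libraries alone (adjusted p = 0.0605). That of Il12rb2 was lost in the libraries with RA numbers 1 to 12 alone (adjusted p = 0.119). Of the exon bases of Il12rb2, 1519 of 3794 lie in exons of Serbp1 on the opposite strand, and 569 of 3808 exon bases of Il10rb are shared with Gm21970 on the same strand, so the reads of these pairs are uncertain.

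Receptor chains that rose included 3 of the interleukin-17 family. Il17ra, the chain common to its receptors, read 92.97, 82.97, 75.8 and 89.8 in WT sham and 231, 176, 230.2 and 261 in OE sham hearts, with no overlap and a call that held under every alternative run (log2 fold change 1.37 ± 0.19, adjusted p = 3.09e-05). Il17rd, which dampens fibroblast growth factor signalling as well, rose from 206 to 291 in group means (log2 fold change 0.49 ± 0.12, adjusted p = 0.00250), and Il17rc from 151 to 186 (log2 fold change 0.30 ± 0.095, adjusted p = 0.0178). The call of Il17rc was lost without WT sham replicate 2 or OE sham replicates 1 or 3 (adjusted p = 0.0565, 0.0672 and 0.0558 in that order). Il17rb and Il17re, and the ligand Il17d, did not pass.

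Il27ra, the receptor of interleukin-27, rose from 64.4 to 135 in group means (log2 fold change 1.06 ± 0.15, adjusted p = 2.86e-05) and Il10ra, the specific chain of the interleukin-10 receptor, from 73.7 to 134 (log2 fold change 0.82 ± 0.24, adjusted p = 0.0109). The call of Il10ra was lost in the libraries with RA numbers 1 to 12 alone (adjusted p = 0.0927). Il3ra, the specific chain of the interleukin-3 receptor, rose by 0.59 ± 0.17 (adjusted p = 0.00816). Il21r, the interleukin-21 receptor, rose by 1.22 ± 0.40 (adjusted p = 0.0193), and its call was lost without WT sham replicate 3 or OE sham replicate 2 (adjusted p = 0.0696 and 0.0678 in that order), and in the libraries with RA numbers 1 to 12 alone (adjusted p = 0.114).

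Il4ra, the chain shared by the interleukin-4 and interleukin-13 receptors, read 355, 343, 353 and 296 in WT sham and 481, 735, 596 and 374 in OE sham hearts (log2 fold change 0.66 ± 0.26, adjusted p = 0.0452). It was the call nearest to the threshold, and it was lost without any 1 of WT sham replicates 1, 2, 3 and 4, OE sham replicates 1, 2 and 3, and OE infarcted replicates 3 and 4 (adjusted p = 0.0502 to 0.146), with all genes in the table tested (adjusted p = 0.0573) and in the libraries with RA numbers 1 to 12 alone (adjusted p = 0.0889). The other chain of the interleukin-13 receptor, Il13ra1, ran from 889 to 1037 in WT and from 701 to 1003 in OE sham hearts and did not pass (adjusted p = 0.287).

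The receptor chains for interleukin-6 did not pass. Il6st read 3828, 3664, 3836 and 3885 in WT sham and 3489, 3920, 3665 and 3792 in OE sham hearts (adjusted p = 0.761). Il6ra, the chain that binds the cytokine, ran from 101 to 138 and from 76.1 to 120.4 (adjusted p = 0.350). Il11, a profibrotic member of that family, read 6.46, 10.2, 6.89 and 17.1 in WT sham and 9.83, 16.6, 21.9 and 8.77 in OE sham hearts and did not pass (adjusted p = 0.342). Il11ra1, its receptor, ran from 482 to 614 in WT and from 387 to 650.5 in OE sham hearts, and Il7r, the interleukin-7 receptor, from 7.66 to 17.2 and from 7.97 to 13.3, both short of the threshold.

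Genes outside the symbol rule that belong to the same pathways moved in both directions, where 47.8% of all genes passed, so that the list counts are a description beside that share. Of 16 genes of the interleukin-6 family tested, members among them, 7 rose and 2 fell. The cytokine Ctf1, cardiotrophin-1, fell from 165 to 56.9 normalized reads in group means (log2 fold change −1.50 ± 0.24, adjusted p = 0.000106). Of 14 genes of NF-kB feedback and targets, 7 rose and 2 fell, among them Ptgs2, the inducible cyclooxygenase (log2 fold change 2.55 ± 0.40, adjusted p = 8.99e-05), and Sod2, mitochondrial superoxide dismutase (log2 fold change −1.15 ± 0.093, adjusted p = 2.28e-07). Of 12 other cytokines of myeloid cells and their receptors 8 rose and 1 fell. Spp1, osteopontin, rose by 2.87 ± 0.47 on the log2 scale (adjusted p = 0.000131), and Csf1, the other ligand of the receptor for Il34, had a log2 fold change of −0.34 ± 0.11 (adjusted p = 0.0210). Of 8 genes of chemerin and of atypical receptors, the latter taking up chemokines without classical signalling, 3 rose and 4 fell.

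After infarction fewer members differed between the genotypes. Of 79 members 9 rose and 5 fell in OE against WT infarcted hearts. The share that passed was 17.7%, below the background of 30.7% of all genes, and by direction it was 11.4% up and 6.33% down against 15% and 15.7%. The split was 14 up and 4 down with library totals in place of the deposited size factors, and 9 up and 8 down in DESeq2. The median log2 fold change was 0.0436 over members and 0.00501 over all genes, and 8 members, 10.1%, had groups that did not overlap, against 26.0% of all genes (5 members higher and 3 lower, against 12.7% and 13.2%). The comparison shares no library with that of the sham hearts, although the fit is the same. Of the 38 members called in sham hearts and the 14 called here, 11 were called in both, which is 11 of 38 and 11 of 14, and each of the 11 had the same direction in both. Among all genes 47.8% passed in sham and 30.7% in infarcted hearts. Their overlap is not given here, so the 11 are a description and not a trait particular to the members. Ccl25, Ccr9 and Cxcl12 were called after infarction and not in sham hearts. The authors' deposited table calls 15 members in this comparison, 12 of them among the 14.

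Cx3cl1 again separated the genotypes, at 263, 209, 299 and 302 in WT infarcted and 584, 518, 569 and 686 in OE infarcted hearts (log2 fold change 1.14 ± 0.13, adjusted p = 1.46e-05). Il18bp read 146, 115, 158 and 161 in WT infarcted and 346, 297, 356 and 411 in OE infarcted hearts (log2 fold change 1.28 ± 0.17, adjusted p = 5.52e-05). Ccl24 read 102, 71.3, 129 and 82.2 in WT infarcted and 27.01, 25.7, 32.4 and 36.1 in OE infarcted hearts and fell (log2 fold change −1.61 ± 0.27, adjusted p = 0.000342). None of these 3 had overlapping groups, and they were the 3 members whose call remained in a fit with terms for the lung and thymus markers (adjusted p = 0.00410, 0.0107 and 0.0225 in that order). Over all genes 1189 passed in that fit, against 4552 in the main fit. With the 3 thymus-bearing libraries left out, which leaves 1 OE infarcted heart, Cx3cl1 and Ccl24 kept their calls (adjusted p = 0.0205 and 0.0360) and Il18bp did not (adjusted p = 0.0526).

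Ccl11 read 106, 70.2, 94.6 and 104 in WT infarcted and 44.8, 60.02, 45.4 and 48.5 in OE infarcted hearts and fell (log2 fold change −0.90 ± 0.27, adjusted p = 0.0180). Its call was lost without WT infarcted replicate 1 (adjusted p = 0.0501), with RA numbers 1 to 12 alone and with the lung and thymus terms. Cxcl10 read 4.82, 3.29, 6.52 and 6.32 in WT infarcted and 9.26, 10.9, 10.2 and 21.1 in OE infarcted hearts and rose without overlap (log2 fold change 1.12 ± 0.37, adjusted p = 0.0307), a call lost without WT infarcted replicates 1 or 2 or OE infarcted replicate 4 (adjusted p = 0.0617, 0.0866 and 0.108 in that order), in DESeq2 (adjusted p = 0.0534) and with the replicate number as a block (adjusted p = 0.0520). OE infarcted replicate 4 held the highest Cxcl10 value of all 16 hearts. Cxcl12 read 5293, 3965, 3619 and 4497 in WT infarcted and 3236, 2880, 3812 and 2860 in OE infarcted hearts and fell (log2 fold change −0.44 ± 0.15, adjusted p = 0.0420), with overlapping groups and a call lost without any 1 of WT sham replicates 2 and 3, OE sham replicates 1 and 3, WT infarcted replicates 1 and 4, and OE infarcted replicates 1, 2 and 4 (adjusted p = 0.0509 to 0.133). It was also lost with all genes tested, with library totals and with RA numbers 1 to 12 alone (adjusted p = 0.0544, 0.167 and 0.0742 in that order). Cxcr6 read 9.64, 9.87, 16.3 and 22.1 in WT infarcted and 27.01, 21.8, 66.7 and 59.9 in OE infarcted hearts and rose, also with overlap (log2 fold change 1.46 ± 0.37, adjusted p = 0.00695). With the thymus-bearing libraries left out its difference was 0.64 on the log2 scale (adjusted p = 0.530).

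Among interleukin receptors, Il17ra read 127, 124, 196 and 181 in WT infarcted and 303, 164, 264 and 280.1 in OE infarcted hearts (log2 fold change 0.68 ± 0.19, adjusted p = 0.0142). Il1rap rose from 168 to 229 in group means (log2 fold change 0.45 ± 0.11, adjusted p = 0.00481), and Il17rc from 162 to 196 (log2 fold change 0.28 ± 0.095, adjusted p = 0.0373). Il15ra read 322, 439, 452 and 329 in WT infarcted and 264, 316, 230.5 and 238 in OE infarcted hearts and fell (log2 fold change −0.55 ± 0.13, adjusted p = 0.00437), while Il15, at 363, 424, 445 and 123 in WT infarcted and 240.0, 277, 168 and 216 in OE infarcted hearts, did not pass (adjusted p = 0.440). Il10rb read 2593, 2271, 2310 and 1886 in WT infarcted and 1456, 1814, 1362 and 1895 in OE infarcted hearts and fell (log2 fold change −0.48 ± 0.12, adjusted p = 0.00669). The call of Il17rc was lost without any 1 of WT infarcted replicates 1 and 3, and OE infarcted replicates 2, 3 and 4 (adjusted p = 0.0635 to 0.112), with all genes tested (adjusted p = 0.0514) and with the replicate number as a block (adjusted p = 0.0647). With the lung and thymus terms none of Il17ra, Il1rap, Il17rc, Il15ra and Il10rb passed (adjusted p = 0.640, 0.134, 0.205, 0.279 and 0.326 in that order). Of 12 macrophage markers none passed in this comparison.

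Cx3cl1, Il18bp and Cxcl10 rose in OE hearts after both operations, and their start regions are shown because the members moved in common. Windows of 300 bases, from 250 before to 50 after the transcription start, were taken from RefSeq on build GRCm38.p6, where 60 of the 79 members matched an entry. They were searched on both strands for the kappaB motif (GGGAA, any 3 bases, then CC), the interferon-stimulated response element (GAAA, any 2 bases, then GAAA), the AP-1 motif TGANTCA and the ETS motif CCGGAAGT, and no matches of different motifs overlapped in the windows shown. Capitals mark the matches. The Cxcl10 window lies at chr5:92348840-92349139 on the minus strand, that of Cx3cl1 at chr8:94771930-94772229 on the plus strand, and that of Il18bp at chr7:102018183-102018482 on the minus strand.
Cxcl10: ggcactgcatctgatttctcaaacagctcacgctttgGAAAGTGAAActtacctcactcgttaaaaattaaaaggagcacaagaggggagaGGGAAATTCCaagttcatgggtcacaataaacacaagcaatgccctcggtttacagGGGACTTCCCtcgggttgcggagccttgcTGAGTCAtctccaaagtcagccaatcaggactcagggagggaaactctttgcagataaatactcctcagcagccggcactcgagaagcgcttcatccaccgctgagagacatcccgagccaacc
Cx3cl1: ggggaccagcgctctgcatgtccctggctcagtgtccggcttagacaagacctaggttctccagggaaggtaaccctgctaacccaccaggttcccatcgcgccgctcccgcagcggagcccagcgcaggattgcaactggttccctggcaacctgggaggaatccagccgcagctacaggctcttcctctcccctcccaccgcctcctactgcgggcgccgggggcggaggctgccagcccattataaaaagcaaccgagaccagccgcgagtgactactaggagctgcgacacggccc
Il18bp: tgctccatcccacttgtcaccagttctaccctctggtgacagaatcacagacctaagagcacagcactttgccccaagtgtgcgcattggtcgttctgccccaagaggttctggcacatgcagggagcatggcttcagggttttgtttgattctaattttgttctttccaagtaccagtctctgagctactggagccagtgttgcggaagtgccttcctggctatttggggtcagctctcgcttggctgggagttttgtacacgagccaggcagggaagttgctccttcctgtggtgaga
The Cxcl10 window held 2 kappaB matches, GGGAAATTCC beginning 159 bases before the start and GGGACTTCCC beginning 103 bases before it, of which the latter matches on the opposite strand. It also held 1 response element match, GAAAGTGAAA, 213 bases before the start, and 1 AP-1 match, TGAGTCA, 74 bases before it. The windows of Cx3cl1 and Il18bp held none of the 4 letter strings, which says only that these letters are not in these windows. Over all 32544 windows of this length 5.79% held the kappaB string, 3.45% the response element, 7.79% the AP-1 string and 3.92% the ETS string, and among the 75 windows of members 9, 4, 11 and 0 of 75 held them. A match is a description of the sequence and not a measured binding site.

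In WT hearts, infarction went with higher Il1b, Il1r1, Il18r1, Il18rap, Ccl6, Ccl9 and Ccl22. Of 79 members 15 rose and 0 fell in WT infarcted against WT sham hearts, beside 6.62% of all genes tested, with 4.73% up and 1.88% down. The median log2 fold change was 0.600 over members and −0.0246 over all genes, and 23 members, 29.1%, had groups that did not overlap, all of them higher after infarction. Among all genes it was 15.2%, with 7.66% higher and 7.58% lower. The 0 of downward calls stood beside 0 downward at an unadjusted p below 0.05, and edgeR and DESeq2 also called 0 downward. By role the 15 were 3 of 14 CC ligands, 1 of 10 CXC or CX3C ligands, 2 of 12 chemokine receptors, 3 of 12 interleukins or binding proteins and 6 of 31 interleukin receptor chains. Of 17 interleukin-1 family genes and regulators tested 6 rose, and of 9 monocyte and macrophage CC ligands 2 rose. This comparison shares the 4 WT sham libraries with that of OE and WT sham hearts. The authors' deposited table calls 22 members, 13 of them among the 15.

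These calls depend on few libraries. Lung transcripts are present in 3 of the 4 WT infarcted hearts. Leaving out the lung-bearing libraries leaves WT infarcted replicate 1 alone in its group, so calls of that fit are not counted here. With terms for lung and thymus markers 0 of the 15 calls remained, and 0 remained in the libraries with RA numbers 1 to 12. Among all genes 980 passed in the main fit, 21 with those terms and 108 in the libraries with RA numbers 1 to 12. Leaving out 1 library at a time gave between 4 and 23 called members. The count was 4 without WT sham replicate 2 and also 4 without WT infarcted replicate 3, it was 8 without WT sham replicate 1 and also 8 without WT sham replicate 4, and it was 23 without WT infarcted replicate 1. It was 8 without WT infarcted replicate 4. The calls over all genes moved too, to 276 without WT sham replicate 2, 294 without WT infarcted replicate 3 and 1863 without WT infarcted replicate 1. Of 12 macrophage markers 8 rose, with sums of 7509 to 9584 in sham and 12928 to 22078 in infarcted hearts, of 8 fibroblast markers 7 rose, of 11 lung epithelium markers tested 2 rose, and of 7 neutrophil markers none passed. Their part in the members' differences was not tested.

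Il1b read 2.58, 0, 1.15 and 1.07 in WT sham and 9.64, 6.58, 33.7 and 13.7 in WT infarcted hearts, with no overlap (log2 fold change 2.83 ± 0.59, adjusted p = 0.0128), and WT infarcted replicate 1, which holds no lung transcripts above the sham level, was at 9.64. Il1rn read 20.7, 2.55, 4.597 and 3.21 in WT sham and 20.5, 23.03, 26.1 and 22.1 in WT infarcted hearts (log2 fold change 1.87 ± 0.52, adjusted p = 0.0427). Il1r1 rose from 339 to 672 in group means (log2 fold change 0.94 ± 0.19, adjusted p = 0.0109), a call held with each single library left out. The call of Il1b was lost without WT sham replicate 2 or WT infarcted replicate 3 (adjusted p = 0.0506 and 0.0507 in that order), and that of Il1rn was lost without any 1 of WT sham replicates 2, 3 and 4, OE sham replicates 1, 2 and 3, WT infarcted replicates 2, 3 and 4, and OE infarcted replicate 3 (adjusted p = 0.0522 to 0.131). That of Il1rn was also lost with all genes tested, with a pseudocount of 5, in edgeR and in DESeq2 (adjusted p = 0.0569, 0.0601, 0.117 and 0.0655 in that order).

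Both chains of the interleukin-18 receptor rose. Il18r1 read 7.75, 11.5, 10.3 and 27.8 in WT sham and 36.2, 121, 176 and 48.5 in WT infarcted hearts (log2 fold change 2.53 ± 0.52, adjusted p = 0.0124), and Il18rap read 3.87, 0, 3.45 and 1.07 in WT sham and 10.8, 14.3, 11.96 and 17.9 in WT infarcted hearts (log2 fold change 2.49 ± 0.49, adjusted p = 0.00962). The call of each held with each single library left out. With the 5 lung-bearing libraries left out, Il18r1 had a log2 fold change of 1.43, against 2.53 with them. WT infarcted replicate 1, at 36.2, was the lowest of its group for Il18r1.

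Ccl6 and Ccl9, neighbouring genes for ligands of Ccr1 made by macrophages, rose together. Ccl6 read 354, 414, 650.4 and 794 in WT sham and 645, 1382, 2248 and 1457 in WT infarcted hearts (log2 fold change 1.32 ± 0.35, adjusted p = 0.0358), and Ccl9 read 165, 236, 328 and 337 in WT sham and 377, 761, 1231 and 544 in WT infarcted hearts (log2 fold change 1.37 ± 0.35, adjusted p = 0.0314). Their receptor Ccr1 rose from 26.3 to 102 in group means (log2 fold change 1.82 ± 0.40, adjusted p = 0.0178). Without WT sham replicates 1 or 2, or without WT infarcted replicates 2, 3 or 4, the calls of Ccl6 and Ccl9 were lost, with adjusted p = 0.0850, 0.107, 0.0771, 0.113 and 0.0765 for Ccl6 and 0.0786, 0.0884, 0.0761, 0.0994 and 0.0505 for Ccl9 in that order. With the lung-bearing libraries left out, their log2 fold changes were 0.30 for Ccl6 and 0.56 for Ccl9. The call of Ccr1 was lost without WT sham replicates 2 or 4 or WT infarcted replicate 3 (adjusted p = 0.0527, 0.0508 and 0.0644 in that order).

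**Figure D3:**
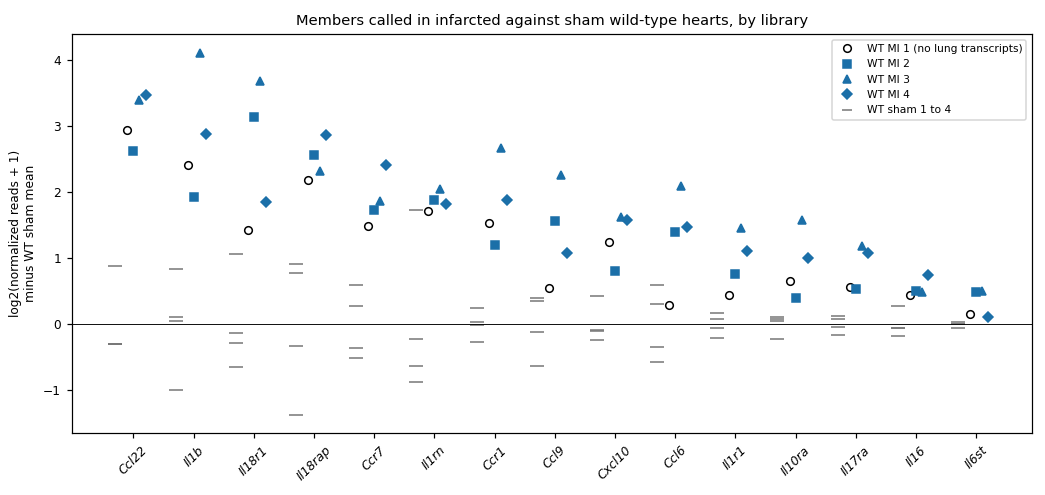
Members called in WT infarcted against WT sham hearts: log2(normalized reads + 1) of each heart minus the WT sham mean, with dashes for the 4 sham hearts, an open circle for WT infarcted replicate 1 and filled symbols for the 3 infarcted hearts that hold lung transcripts. The open circle lies within the range of the sham hearts for Ccl6 and Il1rn and above it for the others.

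Ccl22 had 1 read in the WT sham libraries and 36 in the WT infarcted ones, a ratio of 35.1 relative to the library totals, with a 95% counting interval from 5.92 to 1430, and its infarcted hearts were at 8.44, 6.58, 11.96 and 12.6 (adjusted p = 0.00111). Ccr7 read 1.29, 2.55, 3.45 and 1.07 in WT sham and 7.23, 8.77, 9.79 and 14.7 in WT infarcted hearts (log2 fold change 1.88 ± 0.43, adjusted p = 0.0212), a call lost without any 1 of WT sham replicates 1, 2 and 4, and WT infarcted replicates 3 and 4 (adjusted p = 0.0502 to 0.0605). Cxcl10 read 1.29, 1.28, 2.30 and 1.07 in WT sham and 4.82, 3.29, 6.52 and 6.32 in WT infarcted hearts (log2 fold change 1.32 ± 0.37, adjusted p = 0.0446), and its call was lost without any 1 of WT sham replicates 1, 2 and 4, OE sham replicates 2 and 3, WT infarcted replicates 3 and 4, and OE infarcted replicate 3 (adjusted p = 0.0541 to 0.123), with the replicate number as a block (adjusted p = 0.0747), with a pseudocount of 5 (adjusted p = 0.120) and by both count tools (adjusted p = 0.0615 in edgeR and 0.134 in DESeq2). Ccl22 kept its call with each single library left out.

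Il17ra read 92.97, 82.97, 75.8 and 89.8 in WT sham and 127, 124, 196 and 181 in WT infarcted hearts (log2 fold change 0.84 ± 0.19, adjusted p = 0.0204), a call lost without WT sham replicate 2 or WT infarcted replicates 3 or 4 (adjusted p = 0.0615, 0.0727 and 0.0552 in that order). Il6st, the common chain of the interleukin-6 family, read 3828, 3664, 3836 and 3885 in WT sham and 4219, 5366, 5405 and 4111 in WT infarcted hearts, a small rise without overlap (log2 fold change 0.32 ± 0.083, adjusted p = 0.0353), and the call was lost without any 1 of WT sham replicates 1, 2, 3 and 4, and WT infarcted replicates 2 and 3 (adjusted p = 0.0605 to 0.112). Il10ra rose from 73.7 to 146 in group means (log2 fold change 0.91 ± 0.24, adjusted p = 0.0358), and Il16, a T cell attractant made as a larger precursor, from 194 to 283 (log2 fold change 0.55 ± 0.16, adjusted p = 0.0467). The call of Il10ra was lost without any 1 of WT sham replicates 1, 2, 3 and 4, and WT infarcted replicates 3 and 4 (adjusted p = 0.0595 to 0.107). That of Il16 was lost without any 1 of WT sham replicates 1, 2 and 4, OE sham replicates 1, 2 and 3, WT infarcted replicates 2, 3 and 4, and OE infarcted replicate 3 (adjusted p = 0.0553 to 0.118), with all genes tested (adjusted p = 0.0595) and with the replicate number as a block (adjusted p = 0.0819), and 1202 of its 7865 exon bases lie in exons of Stard5 on the opposite strand.

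Several members of known post-infarct interest were short of the threshold in WT hearts. Ccr2 read 51.7, 76.6, 32.2 and 49.2 in WT sham and 119, 85.5, 145 and 202 in WT infarcted hearts without overlap (adjusted p = 0.0556). Il33 had a log2 fold change of 0.83 ± 0.25 (adjusted p = 0.0554), Il4ra one of 0.87 ± 0.26 (adjusted p = 0.0525), and Il1rl1 one of 0.92 ± 0.30 (adjusted p = 0.0705). Ccl2 read 48.2, 12.1, 95.7 and 57.9 in the WT infarcted hearts and Cx3cl1 263, 209, 299 and 302, with adjusted p of 0.357 and 0.201. At 2 weeks the neutrophil ligands Cxcl1 and Cxcl5 had log2 fold changes of 0.91 ± 0.31 and 1.74 ± 0.93, neither past the threshold.

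In OE hearts no member passed between infarcted and sham hearts with limma, beside a background of 0.00675% of all genes, which is 1 gene. At an unadjusted p below 0.05 there were 16 members, 14 higher and 2 lower after infarction. The count was 0 in edgeR, where 1 of all genes passed, and 4 in DESeq2, where 95 of all genes did. The authors' deposited table also calls 4. Those called by DESeq2 were Ccl25, Ccr9, Cxcl15 and Il7r. Groups did not overlap for 8 members, all higher after infarction, 10.1% against 5.10% of all genes, of which 2.41% were higher and 2.69% lower. Il6st read 3489, 3920, 3665 and 3792 in OE sham and 4155, 4239, 4403 and 4556 in OE infarcted hearts (adjusted p = 0.419), and Ccl6 216, 422, 444 and 501 in OE sham and 1050, 686, 781 and 735 in OE infarcted hearts (adjusted p = 0.377), neither with overlap. Cx3cl1, which was already high in OE sham hearts, had a log2 fold change of −0.34 ± 0.13 (adjusted p = 0.426).

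The interaction asks whether the infarct changed OE hearts otherwise than WT hearts. No member passed in limma, edgeR or DESeq2. Among all genes 0.0810% passed in limma (0.00675% above and 0.0743% below 0), which is 12 genes, beside 11 in edgeR and 138 in DESeq2. In limma 20 members had an unadjusted p below 0.05, with 3 above and 17 below 0. The median over members was −0.354 against 0.00727 over all genes. The smallest adjusted p was that of Ccl22, at 0.0653 with an interaction of −3.23 ± 0.62: its means were 0.319 in WT sham hearts, 10.4 after OE alone, 9.90 after infarction alone and 8.76 with both. Il27ra, Cx3cl1, Ccr1 and Il33 had interactions of −0.71 ± 0.21, −0.61 ± 0.18, −1.91 ± 0.57 and −1.06 ± 0.35, with adjusted p of 0.255, 0.257, 0.259 and 0.318. The lower count of genotype calls after infarction is therefore not a tested difference for any single member.

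Cxcl15, Ccl25 and Ccr9 followed the libraries that hold lung or thymus transcripts. Cxcl15, which is known in mice as lungkine of the airway epithelium, read 1.21, 417, 104 and 254 in WT infarcted and 2.32, 263, 119 and 0.881 in OE infarcted hearts, and at most 1.59 in any sham heart. The 5 libraries with Sftpc are the 5 with Cxcl15 above 100 normalized reads, and the other 11 had 2.32 or less. Cxcl15 passed in none of the 5 comparisons of the limma fit.

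Ccl25, the thymic and intestinal ligand of Ccr9, read 8.44, 20.8, 17.4 and 15.8 in WT infarcted and 74.1, 17.1, 103 and 64.3 in OE infarcted hearts, and Ccr9, a receptor of thymocytes, read 3.62, 6.58, 5.44 and 4.21 in WT infarcted and 95.7, 3.90, 125 and 51.98 in OE infarcted hearts. Both rose in OE against WT infarcted hearts (log2 fold change 1.79 ± 0.45, adjusted p = 0.00664 for Ccl25; log2 fold change 2.85 ± 0.89, adjusted p = 0.0234 for Ccr9). For both genes the 3 libraries with Rag1 are the 3 highest of all 16. With terms for the lung and thymus markers the values were log2 fold change 0.25, adjusted p = 0.773 for Ccl25 and log2 fold change −0.15, adjusted p = 0.943 for Ccr9. With the 3 Rag1 libraries left out they were log2 fold change 0.19, adjusted p = 0.884 for Ccl25 and log2 fold change −0.26, adjusted p = 0.927 for Ccr9, so that the sign of Ccr9 turned in both fits. The call of Ccr9 was lost without any 1 of WT infarcted replicate 1, and OE infarcted replicates 1, 3 and 4 (adjusted p = 0.0546 to 0.0884), and without OE infarcted replicate 2 its log2 fold change was 3.88 (adjusted p = 0.000602). Of 7 thymocyte markers tested 6 rose in the same comparison, with sums of 79.5 to 180 in WT and 115 to 1879 in OE infarcted hearts, and 4 of 7 T and NK cell markers rose.

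**Figure D4:**
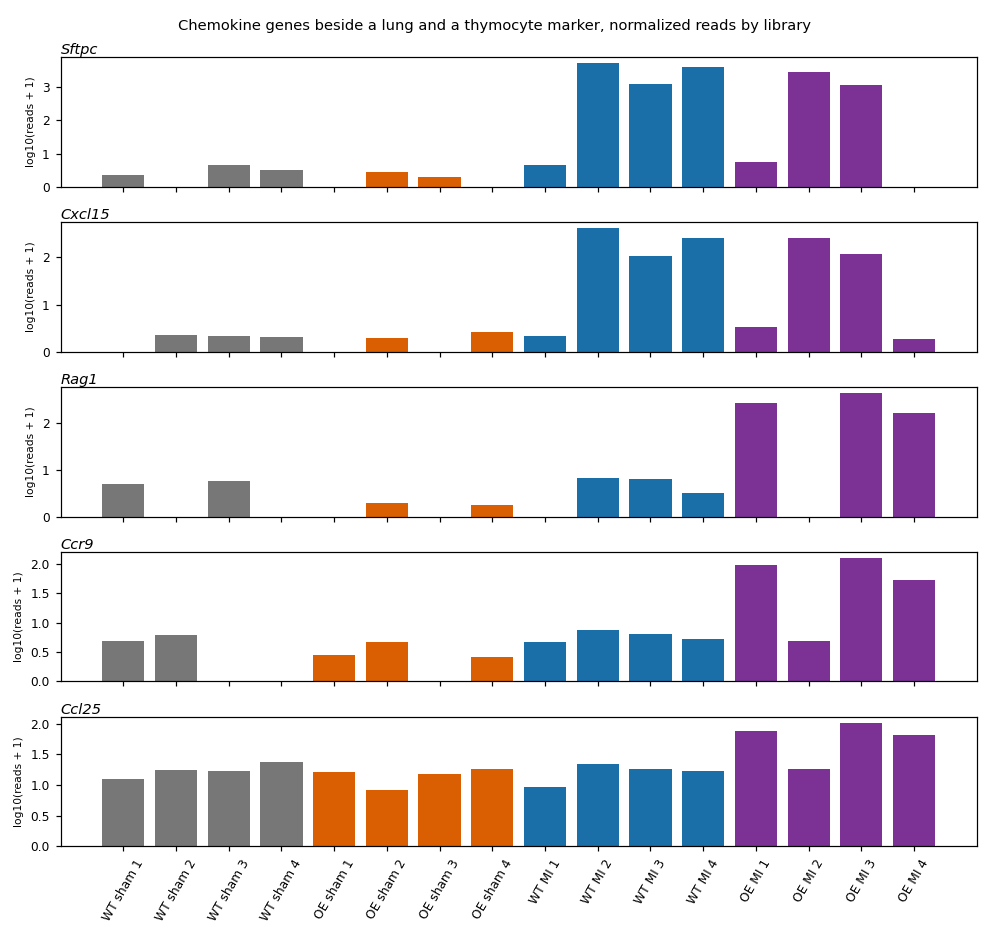
Bars of log10(normalized reads + 1) in each of the 16 libraries for Sftpc, Cxcl15, Rag1, Ccr9 and Ccl25, coloured by group. The 5 libraries with high Sftpc are those with high Cxcl15, and the 3 with high Rag1 are the highest for Ccr9 and Ccl25.

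Many members lie beside each other in the genome, and neighbours did not always move alike. On chromosome 11 of build GRCm38.p6, Ccl2 (chr11:82035577-82037452), Ccl7, Ccl11 (chr11:82057832-82062955), Ccl12 and Ccl8 (chr11:82115185-82116799) start within 79.6 kb. In OE against WT sham hearts Ccl2 and Ccl8 rose by 1.91 ± 0.59 and 1.81 ± 0.48 on the log2 scale, while Ccl11, which starts 22.3 kb from the start of Ccl2, had a log2 fold change of −1.36 ± 0.27. Another group on chromosome 11, Ccl5, Ccl9, Ccl6 and Ccl3, starts within 122.1 kb. There Ccl5 rose in OE against WT sham hearts alone of the 4, and Ccl9 and Ccl6 rose in WT infarcted against WT sham hearts, 2 comparisons that share the WT sham libraries.

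On chromosome 9, Ccr9, Cxcr6, Ccr1 and Ccr2 start within 334.7 kb. Cxcr6, Ccr1 and Ccr2 rose in OE against WT sham hearts, with log2 fold changes of 2.15, 1.54 and 1.39, and Ccr9 did not pass (log2 fold change 0.047 ± 0.89, adjusted p = 0.972). On chromosome 1, Il1r2, Il1r1, Il1rl2, Il1rl1, Il18r1 and Il18rap start within 430.7 kb. In OE against WT sham hearts Il1r1, Il1rl2 and Il18rap rose and the other 3 did not pass, with log2 fold changes between −0.53 and −0.37 for those 3. After infarction in WT hearts Il1r1, Il18r1 and Il18rap rose. Groups of fewer than 3 members were left out above. Among such pairs within 200 kb, Ccl22 and Cx3cl1 both rose in OE against WT sham hearts, as did Il21r and Il4ra. Il2ra and Il15ra both fell there. In other pairs Cxcl10 rose beside Cxcl9, Il17rc beside Il17re and Il1rn beside Il1f9, and the latter gene of each pair did not pass. Neither Ccl27a nor its neighbour Il11ra1 passed.

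**Figure D5:**
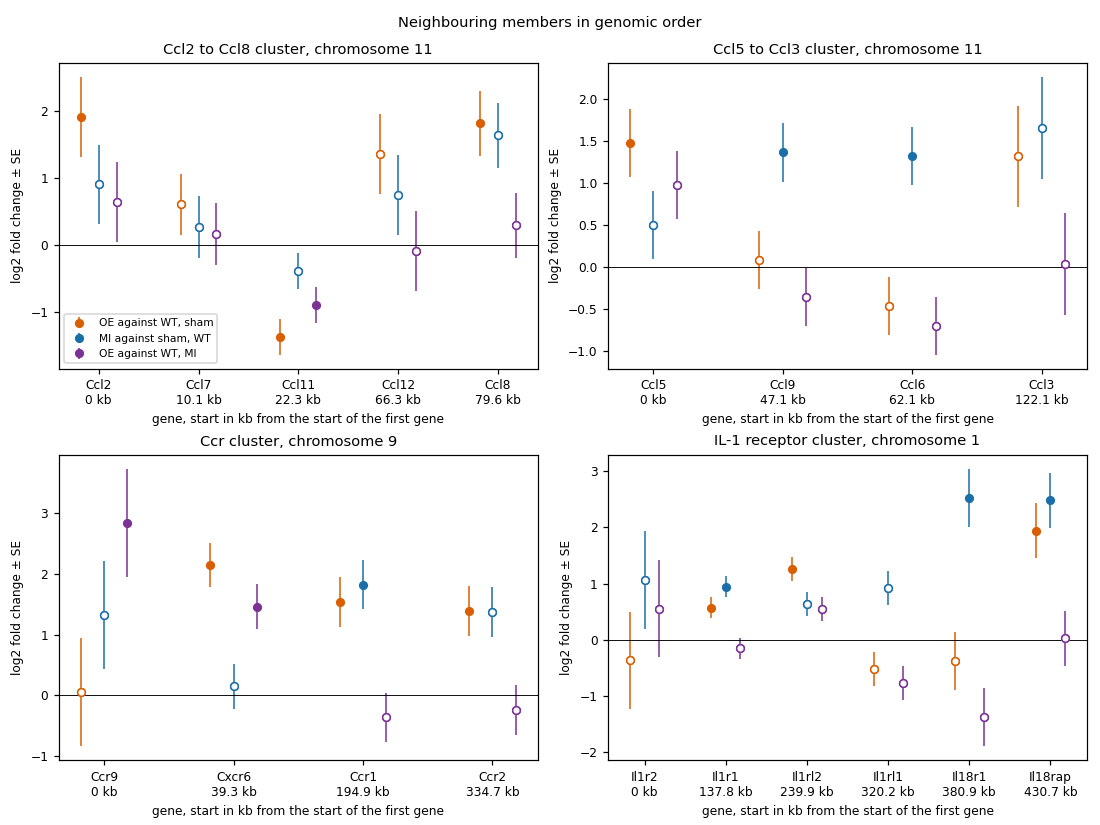
Log2 fold change with standard error of members that lie beside each other, in genomic order, with the start of each gene in kb from the first, for OE against WT sham, WT infarcted against WT sham and OE against WT infarcted hearts. Filled points passed at an adjusted p below 0.05 and open points did not; in the Ccl2 group Ccl11 lies below 0 while Ccl2 and Ccl8 lie above it in OE sham hearts.

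Over the 4 comparisons of 2 groups, 46 of the 79 members passed at least once and 33 never did. Those 33 include the abundant genes Cxcl14, Il13ra1 and Il11ra1, the lymphoid ligands Ccl19 and Cxcl13, the interleukins Il7, Il11, Il17d and Il18, and Ccl7 and Ccl12. For Cxcl13, a B cell attractant, the standard error of 0.87 on the log2 scale was among the widest, and for Il13ra1 it was 0.13, so that a failure to pass limits the possible change far more for Il13ra1 than for Cxcl13.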

How the data were processed

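Poly(A) RNA of 16 mouse hearts was sequenced as single 60-nt reads. Per the series design, reads were trimmed with cutadapt, those under 40 nt were dropped, libraries were subsampled to a common number, aligned with TopHat 2.0.10 to mm10, counted with HTSeq-count 0.6.1p1 over RefSeq genes and tested with DESeq2 1.6.3. The deposited per-sample values are signal, which the authors made by dividing gene counts by 1 size factor per library. Whole reads were recovered from these values, 100% of them whole within a tolerance of 0.001, and gave the totals per library. The authors' deposited table has, per the file headers, columns of log2 fold changes and adjusted p-values for 4 comparisons. They are used only where that table is named.

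From the signal, log2(value + 1) was fitted with limma 3.58.1 (trended variance, R 4.3.3) with 1 mean per group over all 16 libraries. The filter was a mean of at least 5 over the 16 libraries, which left 14811 of 24421 genes. Each of 5 contrasts was adjusted over all of them with the Benjamini-Hochberg method, with a threshold of 0.05. Adjusted p are from this fit unless another is named. They measure the spread between hearts of different animals, and 4 hearts a group limit the precision of each value. The rank of the members by level used exon lengths of GENCODE M21 for GRCm38. Promoters and positions came from RefSeq on GRCm38.p6, the build also called mm10.

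Alternatives were edgeR 4.0.16 (quasi-likelihood) and DESeq2 1.42.0 on the recovered reads, library totals in place of size factors, pseudocounts of 0.5 and 5, no filter, a filter of at least 10 in at least 4 libraries, the replicate number as a block, the libraries with RA numbers 1 to 12 alone, terms for lung and thymus marker levels, and each library left out in turn. The fit was tested on simulated data. Members and gene lists were chosen with earlier results of these data known. A member could be given with its value in every library if it was in a panel of 39 cytokine genes or among the 6 per direction with the largest change among those called in a contrast. Some of these, and most other members, are given only by group means, ranges or log2 fold changes. Of the pathway genes that are not members, up to 4 per list were named per contrast, those called with the smallest adjusted p. The values of 1 member and of 1 pathway gene are not reported here, and both stay in the counts. Neighbouring members were grouped where they lay within 200 kb of each other, and only groups of at least 3 members were kept.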

Additional observations from a re-analysis of the deposited data

Results flagged for a closer look

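Among 192 sets of 4 hearts, 6 had 1 heart far from the other 3, with a gap that took more than the usual share of the group's range, and chance alone gives about 1 in 20. In WT sham hearts these were Ccl22 in replicate 2, at 1.28 normalized reads where the other 3 were at 0, Cxcr6 in replicate 3, at 8.04 below the others, and Il1rn in replicate 1, at 20.7 above the others. In OE sham hearts it was Il18rap in replicate 2, at 12.9. In OE infarcted hearts they were Cxcl10 in replicate 4, at 21.1, and Il1b in replicate 1, at 37.05. OE infarcted replicate 1 was also the heart with the highest summed neutrophil markers, at 814 normalized reads, and the part of these in its Il1b value was not tested. Ccl22 in WT sham replicate 2 rests on 1 read.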

How the results depend on the processing

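Each library left out in turn gave 29 to 39 called members in OE against WT sham hearts, 12 to 15 in OE against WT infarcted hearts, 4 to 23 in WT infarcted against WT sham hearts (4 without WT sham replicate 2 or WT infarcted replicate 3, 8 without WT sham replicates 1 or 4 or WT infarcted replicate 4, and 23 without WT infarcted replicate 1), 0 to 2 in OE infarcted against OE sham hearts and 0 to 1 for the interaction. Every other alternative left the sham comparison between 32 and 41 members. For OE against WT infarcted hearts, 3 members passed with lung and thymus terms. Over all genes 1189 passed in that fit, against 4552 in the main fit. With those terms Ccr9 turned in sign, to −0.15 (adjusted p = 0.943), and with the thymus-bearing libraries left out it was at −0.26. No other call among the named members turned in sign under the alternatives run. For WT infarcted against WT sham hearts, 24 members passed in DESeq2, and 0 with the RA numbers 1 to 12 alone or with lung and thymus terms. Over all genes 1712, 108 and 21 passed in those 3 fits in that order, against 980 in the main fit. For OE infarcted against OE sham hearts, 4 passed in DESeq2, where 95 of all genes did. The fits without lung-bearing or thymus-bearing libraries and with sham libraries alone were added after seeing the data, and where they leave 1 heart in a group that heart is assumed to vary like the others. The cause of these changes was not tested.

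Library totals in place of the deposited size factors shifted the log2 difference between the genotypes, as the median over all genes, to 0.161 in sham and 0.134 in infarcted hearts, and gave 33 up and 6 down in sham hearts. Deviations of same-numbered hearts from their group means had correlations from −0.351 to 0.248. Hearts of different numbers were not set beside them, so these values do not decide whether the replicate numbers pair the hearts. With the replicate number as a block, 36 members passed in sham and 13 in infarcted hearts between the genotypes, and 14 in WT, 0 in OE hearts after infarction and 0 for the interaction. Depth limits the members at a few reads per library, such as Ccl22 in WT sham hearts.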

Other observations

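Genes beside the chemokine and interleukin members were also compared after infarction. Of 14 NF-kB feedback and target genes, 4 rose and 1 fell in OE against WT infarcted hearts: Ptgs2 went from 39.9 to 166 normalized reads in group means (log2 fold change 2.07), Nfkb2 from 531 to 754 (0.50 on the log2 scale) and Relb from 169 to 259 (0.61), while Sod2 went from 9818 to 5169 (−0.93). In the interleukin-6 family the receptor Lifr, which binds leukemia inhibitory factor, went from 1024 to 651 (−0.65). Of 8 atypical receptors and chemerin genes 1 rose and 2 fell: Ackr4, which takes up Ccl19, Ccl21 and Ccl25, went from 178 to 459 (1.42), and Ackr3 from 1944 to 1201 (−0.69). All of these passed at an adjusted p below 0.05 in limma, where 30.7% of all genes did.

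In WT infarcted against WT sham hearts the atypical receptors Ackr1 and Ackr2 rose, with group means of 9.15 and 30.6 normalized reads for Ackr1 and 41.8 and 86.3 for Ackr2. Spp1 rose there from 20.6 to 236, and the receptor chain Csf2rb, shared by interleukin-3, interleukin-5 and granulocyte-macrophage colony-stimulating factor, from 44.2 to 146. In that comparison 3 of 4 infarcted libraries hold lung transcripts, and the part of these in the 4 differences was not tested.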
